A study of Mus musculus with 10 samples.

Results

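Molecular chaperones and proteasome subunits are the protein quality control genes of the cell, and their transcripts were followed here in 5 cell populations hand-picked from mouse cochleae. Members were all genes whose symbols begin with the family stems of the heat shock proteins (Hspa, Hspb, Hspd, Hspe, Hsph, Hsp90 and related names), the J proteins (Dnaja, Dnajb, Dnajc), the CCT chaperonin (Cct2 to Cct8) or the proteasome (Psma to Psmg). The rule matched 145 of the 34590 genes in the count files, and no expression value was used. Of these, 134 had at least 1 count in any library, 11 had none, and 123 passed the filter on low counts and were tested together with all other genes that passed, 16891 in total. The remaining 11 had counts but were too low to test. Among the 145, 13 have pseudogene symbols (with the suffix -ps), of which 3 were tested.

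The libraries came in duplicate from each population. Supporting cells (SCs, libraries 11 and 12) were tdTomato+ cells at P26 and P27 from mice with 2 alleles, the Cre driver Fgfr3iCreER+ and the reporter Rosa26-CAG-loxP-stop-loxP-tdTomato+. Converted hair cells (cHCs, libraries 13 and 16) were tdTomato+ and EGFP+ cells at P33 from mice that carried the same alleles plus Atoh1-HA+, the hair cell transcription factor that converts supporting cells, and alpha9 AChR-EGFP+, which reports a nicotinic receptor gene of hair cells. In both lines the Fgfr3 driver is active in Deiters' and pillar cells, and tamoxifen started recombination in the second postnatal week, so SCs and cHCs share the driver, the reporter and the drug. Outer hair cells (OHCs) at P7 (libraries 14 and 15) and mature OHCs (called P22) are labelled prestin-YFP knock-in, although the study's methods give a different line for P7. Inner hair cells (IHCs) carried Pval-Cre+ and a tdTomato reporter. The mature libraries are called here by the ages in their names, OHC 21 and OHC 22, and IHC 74 and IHC 75. Cochleae were digested with pronase, and the RNA of each small pool of picked cells was amplified before sequencing. The study calls the duplicates biological, and the values below are given in the order of these names.

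Chaperones of the HSP70 and HSP90 families bind unfolded protein and use ATP to release it, J proteins deliver clients to HSP70, small HSPs hold unfolded protein without ATP, and CCT folds actin and tubulin in a closed chamber. Proteins that cannot be folded are tagged with ubiquitin and degraded by the 26S proteasome, a barrel-shaped 20S core capped by 19S particles that unfold the substrate. Stress in the cytosol raises chaperone transcription through heat shock factor 1 at heat shock elements, whereas unfolded protein in the endoplasmic reticulum (ER) acts through ATF6 at ER stress response elements. Hair cells are known to be sensitive to protein stress from aminoglycosides, cisplatin and noise, and heat shock protein induction protects them in experimental models.

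Promoter sequences show which members carry the letters of either element next to the start site. RefSeq promoters (GRCm38.p6, from upstream of the start to 50 bases past it) were found for 109 members, with 131 promoters. The ER stress response element, searched on both strands as CCAAT, 9 bases of any kind and CCACG, was found in 0.119% of all 32851 promoters and in 3 members, Hspa5, Hsp90b1 and Dnajc3. The windows are printed 5′ to 3′ on the strand of the gene with the matched letters in capitals, since these 3 genes are described together below. They lie at chr2:34627525-34627583 (+ strand), chr10:86168258-86168421 (- strand) and chr14:119337029-119337087 (+ strand) of mm9, the authors' build.
Hspa5: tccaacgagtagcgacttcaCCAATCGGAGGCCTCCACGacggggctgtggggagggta
Hsp90b1: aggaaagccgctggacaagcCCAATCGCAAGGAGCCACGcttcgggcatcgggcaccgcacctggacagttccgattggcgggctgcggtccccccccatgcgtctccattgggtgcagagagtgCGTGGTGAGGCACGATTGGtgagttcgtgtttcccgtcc
Dnajc3: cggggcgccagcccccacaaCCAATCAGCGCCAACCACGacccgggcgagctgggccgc

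The Hsp90b1 window held 2 matches in opposite orientation, and the other windows held 1 each. The first 5 letters of the element alone, CCAAT, were found in 37.4% of all promoters and in 44 of the 109 members, so the full element is the rarer feature. The heat shock element, searched on both strands as GAA, 2 bases of any kind, TTC, 2 bases of any kind and GAA, was found in 0.603% of all promoters and in 6 promoters of 4 members. A match is a description of the letters and not a site of binding. Hspd1 and Hspe1, a head-to-head gene pair, share 1 stretch with 2 overlapping matches between their start sites at chr1:55144897-55144926, printed on the Hspe1 strand (+). The others are Dnajb6 at chr5:30062384-30062412 (+ strand) and Hsph1 at chr5:150438855-150438883 (- strand), where the match lies just after the start.
Hspe1: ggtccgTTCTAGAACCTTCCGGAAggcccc
Dnajb6: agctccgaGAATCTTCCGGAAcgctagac
Hsph1: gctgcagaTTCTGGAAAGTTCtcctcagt

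Total counts in genes ranged from 15016129 to 40518766 per library, and CPM are counts scaled to library size after TMM normalization. On that scale 3 counts correspond to 0.0762 CPM in cHC library 16 and 0.2645 CPM in OHC 21, the lowest and the highest of the 10 libraries. Hair cell markers summed to 4344 to 6535 CPM in the 8 hair cell and cHC libraries and to 363 and 370 CPM in SCs, and the outer and inner hair cell markers followed the labels. Supporting cell markers summed to 1475 and 1992 CPM in SCs, 584 and 991 in cHCs, 825 and 1063 in IHCs, and 9.14 to 272 in OHCs. Leukocyte markers summed to 0.176 to 31.1 CPM, and Schwann cell markers to 8.66 to 224 CPM, highest in SC library 12. Fibroblast markers reached 382 CPM in P7 OHC library 15 and at most 49.5 CPM in the other libraries. Library OHC 21 stood apart, with 14332 genes detected against 15138 to 18333 in the other libraries. Its TMM factor was 0.5825, against 0.9298 to 1.199 in the other libraries, so the scaling raised all CPM of OHC 21. By name and by the study's own normalized columns, 4 of the 10 deposited files hold another library than the record they are attached to, and each file was therefore used as the library it names. P22 OHC and IHC libraries have names of another style than SC, cHC and P7 OHC libraries, so cell type and naming series cannot be told apart between these sets. In their names, SC 12, cHC 13 and P7 OHC 15 hold an additional sample number, and SC 11, cHC 16 and P7 OHC 14 do not. Each of these cell types thus has 1 library of either form.

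Across the 5 cell types, 4 of the 123 members tested were called by the edgeR joint test at a false discovery rate (FDR) of 0.05: Dnajb1, Hspb8, Psmd6 and Hsp90b1. Of all genes tested, 7.81% were called in that test, and whether the shares differ was not tested. At an unadjusted p under 0.05 the joint test gave 22 members against a background of 25.6%. DESeq2 called 18 members jointly against 26% of all genes, and limma-voom, the method the study names, called 11 against 13.5%.

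SCs and cHCs differ in Atoh1-HA, in the EGFP allele, in age and in picking by EGFP, which cannot be told apart here. From SCs to cHCs, edgeR called 1 member, Dnajb1, which was lower in cHCs, against 1.84% of all genes. At an unadjusted p under 0.05, 10 members were higher and 7 lower, and the background was 15%. DESeq2 called 4 members against 10.5%, and limma-voom 5 against 6.31%. The median log2 fold change was 0.05 over the members and 0.03 over all genes.

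Between P22 OHCs and SCs, edgeR called 4 members against 8.02% of all genes: Hsph1, Psmd6 and Psme4 were higher in OHCs and Dnajb1 was lower. At an unadjusted p under 0.05, 16 were higher and 14 lower, with a background of 25.7%. DESeq2 called 23 members against 24.6%, and limma-voom 7 against 11.2%. This comparison and the one before share the SC libraries.

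Each of the other comparisons gave 0 members at an edgeR FDR of 0.05. For P22 OHCs minus cHCs the background was 3.18%, and at an unadjusted p under 0.05 there were 6 members higher and 6 lower against 19.3%, while DESeq2 called 11 against 16.1% and limma-voom 4 against 5.51%. For P7 OHCs minus cHCs it was 0.343%, with 4 members higher and 3 lower at an unadjusted p under 0.05 against 11.2%, while DESeq2 called 2 against 6.65% and limma-voom 2 against 2.24%. For IHCs minus cHCs it was 0.924%, with 7 higher and 2 lower against 12.8%, while DESeq2 called 3 against 8.16% and limma-voom 4 against 4.37%. For P22 minus P7 OHCs it was 0.551%, with 7 higher and 4 lower against 13.9%, while DESeq2 called 7 against 9.66% and limma-voom 0 against 0.651%. For IHCs minus P22 OHCs it was 1.46%, with 3 higher and 3 lower against 15.2%, while DESeq2 called 7 against 12% and limma-voom 0 against 1.77%.

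**Figure D1:**
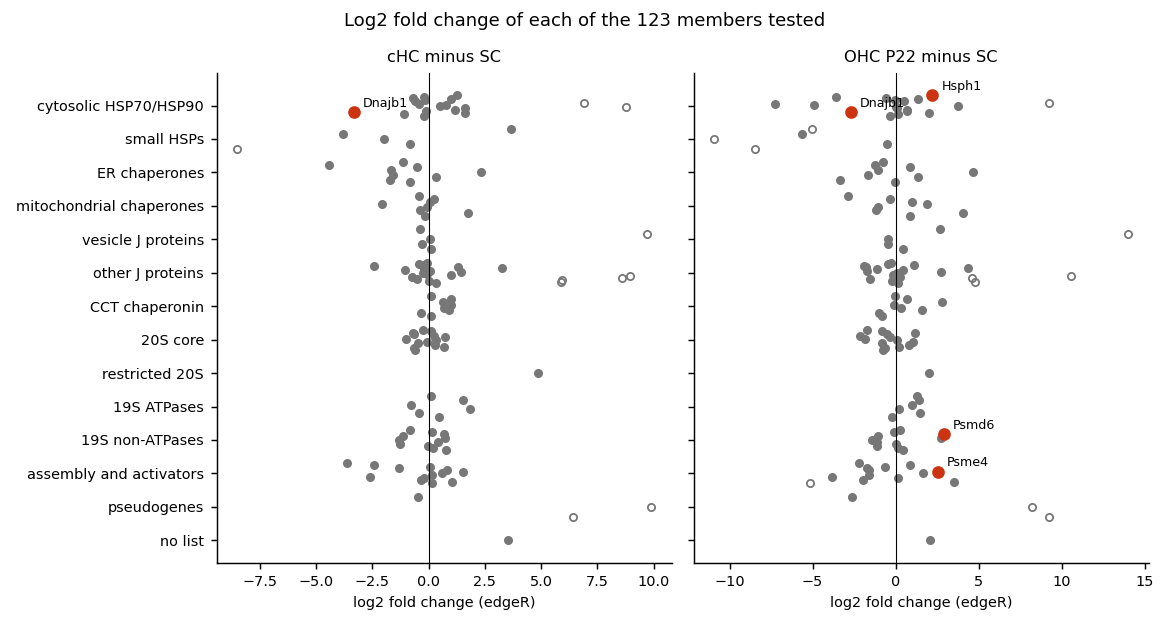
Log2 fold changes from edgeR (x axis) of each of the 123 members tested, by role (rows), for cHCs minus SCs (left) and P22 OHCs minus SCs (right). Red points passed an FDR of 0.05, and open points have at most 3 counts in both libraries of one of the compared cell types, where the fitted value depends on the prior count. Called members are few, and most lists straddle 0.

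The 145 members summed to 10260 to 16850 CPM, a 1.64-fold range, lowest in cHC library 16 and highest in IHC 75. For a lower share in bulk RNA, fewer expressing cells in the pool, less member RNA per cell and more RNA of other genes cannot be told apart. Duplicates differed by a median of 1.80-fold over the members in SCs, 1.63-fold in cHCs, 1.47-fold in P7 OHCs, 2.43-fold in P22 OHCs and 1.55-fold in IHCs, against 1.85-fold to 2.53-fold over all genes tested. Both IHC libraries lay above both P22 OHC libraries for 28.5% of members and below both for 12.2%, against 24.1% and 18.6% of all genes. This was the most uneven split of members among the 7 comparisons. For cHCs minus SCs, 20.3% of members lay above in this way and 21.1% below, against 25.4% and 20.4% of all genes. Over the 7 comparisons, 19.8% to 25.4% of all genes lay above and 18.6% to 28.1% below. A lack of overlap between libraries was therefore common among all genes.

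**Figure D2:**
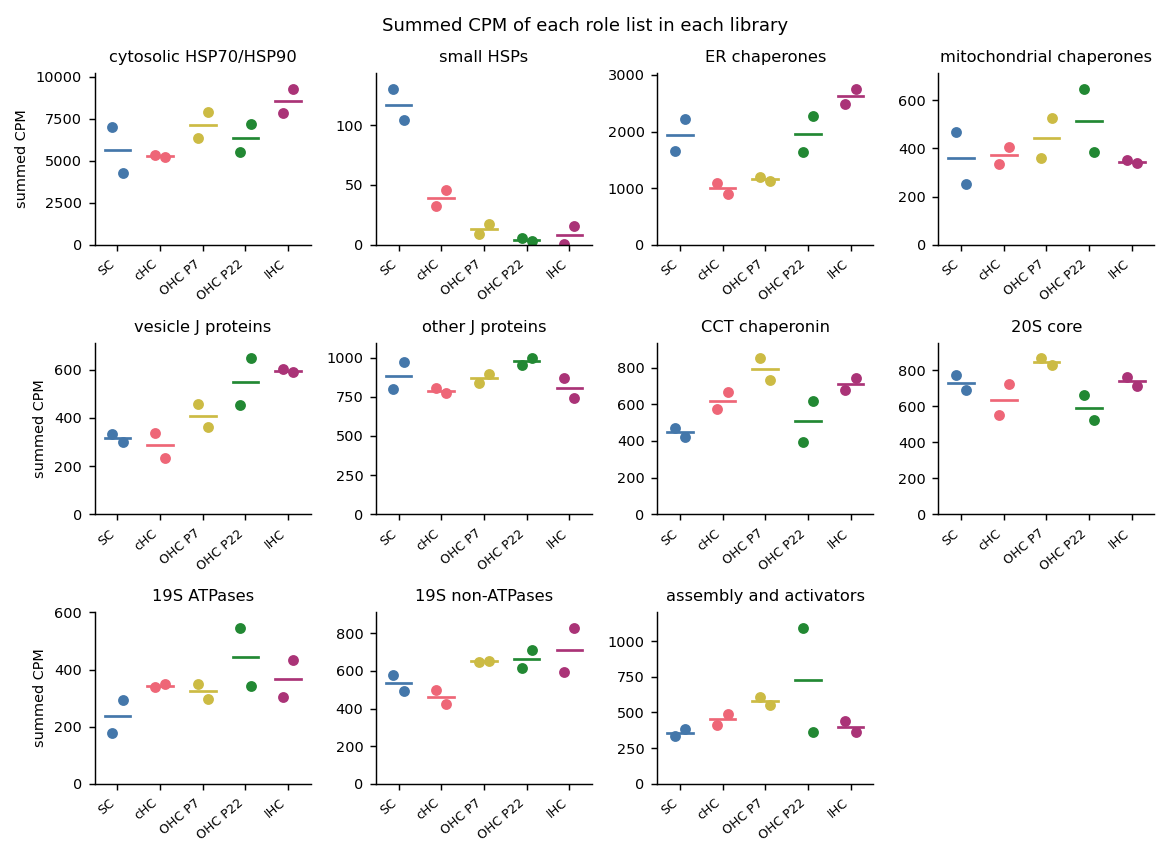
Summed CPM (y axis, from 0) of each role list in each library, with 2 points per cell type and a bar at their mean. Small HSPs are highest in both SC libraries (104 and 130 CPM), ER chaperones are low in both cHC libraries (894 and 1098 CPM) and highest in both IHC libraries (2494 and 2755 CPM), and the 20S core spans 521 to 865 CPM.

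Cytosolic HSP70 and HSP90 chaperones were the list with the largest sum of CPM, at 4275 to 9270 CPM in sum. Per kilobase of exon, Hsp90ab1 (constitutive HSP90) had the highest mean level of all members at 445 CPM per kb, followed by Hspa8 (constitutive HSC70) at 321, Hsp90aa1 (inducible HSP90) at 299, Hsp90b1 (the ER form of HSP90) at 198 and Hspa2 (an HSP70 best known from testis) at 148. Of the 18 tested in the list, 9 joint edgeR p-values were under 0.05 before adjustment (25.6% of all genes), and Dnajb1 alone passed the edgeR FDR (7.81% of all genes).

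Dnajb1 encodes HSP40, the J protein that partners inducible HSP70 in the heat shock response (mm9 chr8:86132074-86135801, + strand). It measured 1617 and 376 CPM in SC libraries 11 and 12, 100 and 101 CPM in cHC libraries 13 and 16, and 104 and 139 CPM in P7 OHCs. It measured 151 and 161 CPM in P22 OHCs, and 200 and 158 CPM in IHCs. Both SC libraries lay above all 8 others, and SC library 11 stood far above SC library 12.

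The edgeR log2 fold change of Dnajb1 was -3.30 ± 0.66 (SE) for cHCs minus SCs (FDR = 0.0286) and -2.68 ± 0.64 for P22 OHCs minus SCs (edgeR FDR = 0.0277), with n = 2 libraries per cell type, and its joint edgeR FDR was 0.0140. Without SC library 11 these values became -1.90 (edgeR FDR = 0.212), -1.27 (edgeR FDR = 0.271) and a joint edgeR FDR of 0.234. Immediate early genes, which rise during cell dissociation among other stimuli, summed over 8 genes to 7113 and 2081 CPM in SCs, 1117 and 912 in cHCs, 244 and 169 in P7 OHCs, 50.9 and 13.9 in P22 OHCs, and 592 and 2396 in IHCs. Their part in the Dnajb1 result was not tested. Within SCs, library 11 was higher than library 12 both in Dnajb1 and in the immediate early sum. Between cell types, IHC 75 held a larger immediate early sum than SC library 12, with a Dnajb1 level of 158 against 376 CPM.

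The stress-inducible HSP70 genes, Hspa1a and Hspa1b, differed widely between duplicates. Hspa1a measured 48.1 and 1.07 CPM in SCs, 64.9 and 18.8 in cHCs, 11.0 and 8.06 in P7 OHCs, 0.441 and 1.18 in P22 OHCs, and 4.51 and 5.29 in IHCs. Hspa1b measured 49.4 and 0.0444 CPM in SCs, 27.5 and 9.86 in cHCs, 7.50 and 2.08 in P7 OHCs, 0.0882 and 0.211 in P22 OHCs, and 2.26 and 10.3 in IHCs. The genes are near-identical copies, so the split of reads between them is uncertain, and of the SC libraries both were higher in library 11, as Dnajb1 was. Hspa1a overlaps Gm20481 on the other strand. Hspa1a was lower in P22 OHCs than in cHCs by -5.67 ± 1.83 (log2, edgeR FDR = 0.131), which did not pass, although DESeq2 called it.

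Hsph1 encodes HSP110, the nucleotide exchange factor that resets HSP70 and takes part in disaggregation (mm9 chr5:150416862-150438951, - strand). Its level was 143 and 80.2 CPM in SCs, 232 and 300 in cHCs, 546 and 584 in P7 OHCs, 429 and 605 in P22 OHCs, and 328 and 421 in IHCs. All 6 native hair cell libraries lay above both cHC libraries, and both cHC libraries above both SC libraries. For P22 OHCs minus SCs the log2 fold change was 2.21 ± 0.48 (edgeR FDR = 0.0170), whereas for cHCs minus SCs it was 1.25 ± 0.46 (edgeR FDR = 0.252). Without SC library 12 the former was 1.85 (edgeR FDR = 0.0981). The joint edgeR FDR was 0.0537.

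The HSP90 genes of the cytosol differed in their order across cell types. Hsp90ab1 measured 694 and 710 CPM in SCs, 1605 and 1578 in cHCs, 1569 and 1451 in P7 OHCs, 922 and 1318 in P22 OHCs, and 1628 and 1881 in IHCs. Hsp90aa1 measured 1051 and 419 CPM in SCs, 772 and 598 in cHCs, 1060 and 1400 in P7 OHCs, 1067 and 1312 in P22 OHCs, and 1744 and 2330 in IHCs. Per kilobase, the ratio of Hsp90aa1 to Hsp90ab1 was lowest in the cHCs, at 0.367 and 0.289, and 0.516 to 0.945 in the native hair cells, while the SC libraries spread from 0.450 to 1.16. Hsp90ab1 was 1.18 ± 0.35 (log2) higher in cHCs than SCs, with no overlap of libraries, and did not pass the edgeR test (FDR = 0.147), although limma-voom called it. Hsp90aa1 was 1.57 ± 0.47 (log2) higher in IHCs than cHCs (edgeR FDR = 0.202), a difference that limma-voom called.

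Hspa8 and Hspa2, HSP70 genes without a classical heat response, differed in direction between the OHC ages. Hspa8 measured 1556 and 1289 CPM in SCs, 821 and 929 in cHCs, 1550 and 2419 in P7 OHCs, 885 and 986 in P22 OHCs, and 1394 and 1510 in IHCs. Hspa2 measured 542 and 206 CPM in SCs, 275 and 221 in cHCs, 64.8 and 126 in P7 OHCs, 510 and 542 in P22 OHCs, and 525 and 710 in IHCs. Both P7 OHC libraries held the lowest Hspa2 of all, and the per-kilobase ratio of Hspa2 to Hspa8 was 0.0690 and 0.0856 there, against 0.950 and 0.907 in P22 OHCs. The log2 fold change of Hspa2 for P22 minus P7 OHCs was 2.47 ± 0.57 (edgeR FDR = 0.0942), and that of Hspa8 for P7 OHCs minus cHCs was 1.18 ± 0.36 (edgeR FDR = 0.269). Neither passed edgeR, while DESeq2 called the former and limma-voom the latter.

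Small HSPs bind unfolded protein without ATP. The list holds the 8 genes with Hspb symbols, Hspb11 among them, and was made by symbol and not by function. These 8 genes summed to 130 and 104 CPM in SCs, 32.5 and 45.8 in cHCs, and 0.943 to 17.0 CPM in the native hair cells. Of the 8, 5 were tested and 2, Hspb3 and Hspb7, had no count in any library. In P22 OHCs minus SCs all 5 fold changes were negative, 4 at an unadjusted p under 0.05 (25.7% of all genes), and 0 passed the edgeR FDR (8.02% of all genes).

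Most of the SC sum was Hspb6 (HSP20, a partner of actin-binding proteins). Its level was 109 and 93.5 CPM in SCs, against 8.34 and 6.27 in cHCs. It measured 7.04 and 4.16 CPM in P7 OHCs, 3.17 and 0.969 in P22 OHCs, and 0.101 and 13.4 in IHCs. Both SC libraries lay far above the rest, but the log2 fold change was -3.79 ± 1.65 for cHCs minus SCs (edgeR FDR = 0.315) and -5.62 ± 1.81 for P22 OHCs minus SCs (edgeR FDR = 0.0836). DESeq2 and limma-voom called the latter difference and not the former. Hspb6 overlaps Lin37 on the other strand, and the counting is not stated to use strand. Hspb1 (HSP27) measured 1.51 and 1.82 CPM in SCs and at most 0.135 CPM in any other library, including 0 in both cHC libraries.

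Hspb8 (HSP22, which works with BAG3 in selective autophagy) stood out in cHCs (mm9 chr5:116858500-116872873, - strand). It measured 23.1 and 32.1 CPM in cHC libraries 13 and 16, 0.956 and 3.46 CPM in SCs, 0.0273 and 0 in P7 OHCs, 0.0882 and 0.0421 in P22 OHCs, and 0.101 and 0.0687 in IHCs. All 6 native hair cell libraries held at most 3 counts, and both cHC libraries lay above both SC libraries. DESeq2 and limma-voom called Hspb8 lower in P7 OHCs, P22 OHCs and IHCs than in cHCs, which edgeR did not at an FDR of 0.05. The joint edgeR FDR was 0.0177, and it lost the call without cHC library 16 (edgeR FDR = 0.0862). The SC and cHC libraries did not overlap, but that pairwise difference did not pass the edgeR test at an FDR or an unadjusted p of 0.05. BAG3 itself (Bag3, no member of the families) measured 158 and 100 CPM in SCs, 69.5 and 12.1 in cHCs, and 3.0 to 39.3 CPM in the native hair cells.

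**Figure D3:**
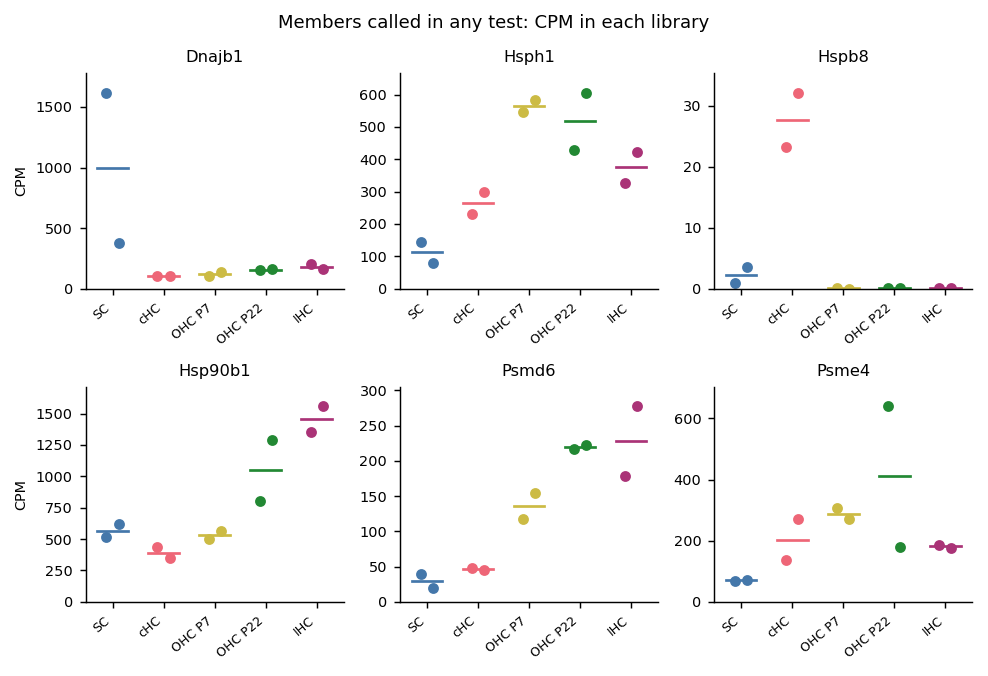
CPM (y axis, from 0) of the 6 members called in any edgeR test, with 2 libraries per cell type as points and a bar at their mean. Dnajb1 is high in SCs (376 and 1617 CPM), Hspb8 in cHCs (23.1 and 32.1 CPM), and Hsp90b1 and Psmd6 in P22 OHCs and IHCs.

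ER chaperones fold membrane and secreted proteins, among them the channels and adhesion proteins of the hair bundle. The 9 genes, all tested and each with at least 10 counts in every library, summed to 1654 and 2229 CPM in SCs, 1098 and 894 in cHCs, 1191 and 1128 in P7 OHCs, 1644 and 2281 in P22 OHCs, and 2494 and 2755 in IHCs. The cHC libraries held the lowest sums and the IHC libraries the highest. For cHCs minus SCs, 7 of the 9 fold changes were negative with a median log2 value of -1.13 (0.03 over all genes), 4 at an unadjusted p under 0.05 (15% of all genes) and 0 at an edgeR FDR of 0.05. For IHCs minus cHCs, 8 of 9 were positive with a median of 0.98 (-0.05 over all genes), 2 at an unadjusted p under 0.05 (12.8% of all genes) and 0 at an edgeR FDR of 0.05. Both comparisons share the cHC libraries. Supporting cell marker sums overlapped between IHCs and cHCs, but some single markers did not. Fgfr3 measured 458 and 431 CPM in cHCs against 17.3 and 0 in IHCs. Gjb2 went the other way, with 83.4 and 1.73 CPM in cHCs against 611 and 468 in IHCs.

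The 3 genes with the ER stress response element in the windows printed above did not follow 1 pattern. Hspa5 encodes BiP, the HSP70 of the ER (mm9 chr2:34627490-34632051, + strand). It measured 623 and 719 CPM in SCs, 327 and 286 in cHCs, 411 and 263 in P7 OHCs, 264 and 537 in P22 OHCs, and 575 and 561 in IHCs. Dnajc3, which encodes the BiP partner p58IPK, measured 226 and 322 CPM in SCs, 90.1 and 79.5 in cHCs, 101 and 53.0 in P7 OHCs, 124 and 140 in P22 OHCs, and 173 and 192 in IHCs. Both genes were highest in both SC libraries and lower in cHCs, by -1.13 ± 0.47 for Hspa5 (edgeR FDR = 0.293) and by -1.69 ± 0.53 for Dnajc3 (edgeR FDR = 0.177) on the log2 scale. These differences did not pass edgeR, and limma-voom called both.

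Hsp90b1 encodes GRP94, the ER form of HSP90 that folds integrins and Toll-like receptors (mm9 chr10:86152954-86168254, - strand). It measured 514 and 618 CPM in SCs, 437 and 348 in cHCs, 503 and 567 in P7 OHCs, 804 and 1293 in P22 OHCs, and 1350 and 1559 in IHCs. Both IHC libraries lay above all others, and all 4 mature hair cell libraries lay above the remaining 6. The joint edgeR FDR was 0.0409. The log2 fold change was 1.89 ± 0.40 for IHCs minus cHCs (edgeR FDR = 0.0607) and 1.42 ± 0.40 for P22 OHCs minus cHCs (edgeR FDR = 0.0847). Both differences did not pass edgeR and were called by limma-voom and DESeq2. The cell types of these differences come from different naming series, and the joint call was lost when cHC library 16, either P7 OHC library or either IHC library was left out (edgeR FDR 0.0667 to 0.135). The gene overlaps 1810014B01Rik on the other strand.

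Per kilobase, Hsp90b1 stood at 0.719 and 0.750 of Hspa5 in SCs, 1.17 and 1.06 in cHCs, 1.07 and 1.88 in P7 OHCs, 2.65 and 2.10 in P22 OHCs, and 2.05 and 2.42 in IHCs. Both SC libraries were below 1, and the 4 mature hair cell libraries were above all others. Hyou1, the ER form of HSP110 and no member of the families, measured 32.8 and 139 CPM in SCs, 97.1 and 135 in cHCs, 323 and 275 in P7 OHCs, 386.7 and 391.3 in P22 OHCs, and 805 and 791 in IHCs, with a joint edgeR FDR of 0.0298. Hyou1 was the only 1 of the 56 related genes called jointly, against 7.81% of all genes. Among transcription factors of ER stress, Xbp1 and Ddit3 had joint edgeR FDRs of 0.258 and 0.281.

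**Figure D4:**
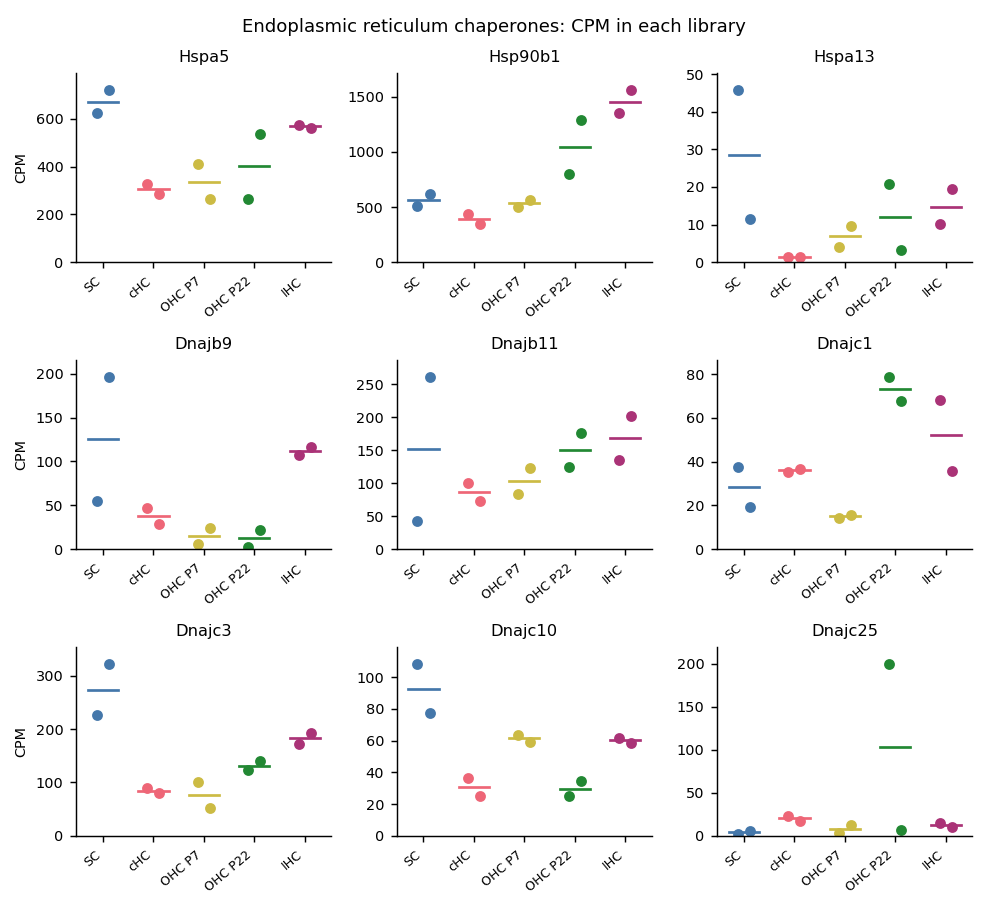
CPM (y axis, from 0) of the 9 ER chaperones in each library, with 2 points per cell type and a bar at their mean. Hspa5 and Dnajc3 are highest in both SC libraries, whereas Hsp90b1 is highest in IHCs (1350 and 1559 CPM).

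Mitochondrial chaperones summed to 252 to 647 CPM, and none of the 8 tested passed an edgeR FDR of 0.05 in any comparison. DESeq2 called Hspe1, lower in P22 OHCs than in SCs, cHCs and P7 OHCs. It also called Dnajc11 and Dnajc30, which are named here because of those calls. Dnajc11 was called higher in P22 OHCs than in SCs and IHCs, and Dnajc30 than in P7 OHCs and IHCs. Dnajc11 measured 253 CPM in OHC 21 and 56.5 CPM in OHC 22. Dnajc30 measured 112 and 0.421 CPM there, so its P22 duplicates disagreed. Hspd1 (HSP60) and Hspe1 (HSP10) form the folding chamber of the matrix and share the promoter stretch printed above. Hspd1 measured 207 and 63.0 CPM in SCs, 164 and 152 in cHCs, 177 and 202 in P7 OHCs, 64.5 and 147 in P22 OHCs, and 153 and 174 in IHCs. Hspe1 measured 100 and 48.5 CPM in SCs, 35.6 and 76.8 in cHCs, 41.6 and 109 in P7 OHCs, 8.29 and 11.8 in P22 OHCs, and 38.2 and 13 in IHCs. Hspa9 (mortalin, the HSP70 of the import motor) measured 49.3 to 154 CPM, lowest in cHC library 13 and highest in OHC 21. The P22 OHC libraries held the lowest Hspe1, at -2.91 ± 0.93 against P7 OHCs (log2, edgeR FDR = 0.222). Per kilobase the ratio of Hspd1 to Hspe1 ran from 0.725 to 7.46. Hspd1 and Hspe1 overlap on opposite strands, and Hspe1 has pseudogenes among the members, so its counts are uncertain.

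Among the J proteins of vesicles, Dnajc6 (auxilin, which strips clathrin from vesicles with HSC70) was higher in native hair cells in its values. It measured 69.0 and 14.2 CPM in SCs, 20.3 and 43.9 in cHCs, 214 and 210 in P7 OHCs, 177 and 363 in P22 OHCs, and 128 and 152 in IHCs. All 6 native hair cell libraries lay above all SC and cHC libraries. The log2 fold change was 3.07 ± 0.80 for P22 OHCs minus cHCs (edgeR FDR = 0.0646) and 2.70 ± 0.78 for P22 OHCs minus SCs (edgeR FDR = 0.0598), and the joint edgeR FDR was 0.0736. These did not pass edgeR, and limma-voom and DESeq2 called Dnajc6 in both comparisons and the joint test.

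Dnajc5 (cysteine string protein, a chaperone of synaptic vesicle fusion) measured 42.1 to 149 CPM, lowest in OHC 21. Its relative Dnajc5b measured 0 and 0 CPM in SCs, 0.128 and 7.47 in cHCs, 0 and 0 in P7 OHCs, 152 and 0.0842 in P22 OHCs, and 291 and 201 in IHCs. It was high in both IHC libraries and in OHC 21 but not OHC 22, and the joint edgeR FDR was 0.0548. Dnajc5b overlaps 1700064H15Rik on the other strand. Of the 21 tested J proteins with other or unassigned roles, none passed an edgeR FDR of 0.05 in any comparison, and Dnajb6 (an inhibitor of amyloid aggregation) measured 94.5 to 238 CPM. Dnajc12, one of the 3 members with the largest range of cell type means, differed between duplicates, with 105 CPM in OHC 21 and 0.0421 CPM in OHC 22.

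The CCT chaperonin folds actin and tubulin, which build the hair bundle and the scaffold of supporting cells. The 9 genes listed by symbol, Tcp1 not among them, summed to 473 and 424 CPM in SCs and 572 and 666 in cHCs. Their sums were 851 and 733 in P7 OHCs, 397 and 618 in P22 OHCs, and 678 and 741 in IHCs. Both SC libraries lay below both cHC libraries in the sum, and 7 of 8 fold changes for cHCs minus SCs were positive with a median log2 value of 0.66 (0.03 over all genes). For each of the 7 comparisons 0 CCT genes passed the edgeR test at an FDR or an unadjusted p of 0.05. Single subunits differed widely between duplicates: Cct2 measured 18.7 and 97.2 CPM in P22 OHCs, and Cct8 24.7 and 103 CPM in SCs. Cct6b, the testis form, was at 0 CPM in 6 of the 10 libraries.

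The 26S proteasome degrades ubiquitin-tagged protein. Listed by symbol were 31 subunits: 14 of the 20S core, and 6 ATPases and 11 non-ATPases of the 19S particle. All 31 had counts in all 10 libraries. They summed to 1527 and 1473 CPM in SCs, 1390 and 1495 in cHCs, 1861 and 1782 in P7 OHCs, 1819 and 1573 in P22 OHCs, and 1663 and 1973 in IHCs. The range was 1.42-fold, and the cHC libraries lay below all 6 native hair cell libraries. The 20S core, the part with the cleaving subunits, summed to 521 to 865 CPM, and 0 of its 14 genes passed an edgeR FDR of 0.05 in any comparison.

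Medians per library ran from 34.9 to 53.6 CPM, and single subunits from 1.04 CPM (Psmd3 in P7 OHC library 14) to 278 CPM (Psmd6 in IHC 75). Library OHC 21 had 11 of the 31 subunits below 15 CPM and 7 above 100 CPM, against at most 5 below and 5 above in any other library. Duplicates differed more than 4-fold for 10 of 31 subunits in P22 OHCs, 2 in SCs, 1 in P7 OHCs, 1 in IHCs and 0 in cHCs. The P22 OHC count is 32.3% of the subunits, near the 36.4% of all genes tested, and in the other cell types 25.76% to 29.97% of all genes differed that much. In OHC 21 the catalytic subunit Psmb5 reached 103 CPM against 11.1 in its duplicate, while Psmb6 was at 7.76 against 30.1 and Psmb7 at 23.2 against 32.9. Psmb4, a core subunit without catalytic activity, was at 10.8 CPM in OHC 21 and at 112 CPM in OHC 22. OHC 21 is also the library with the fewest genes detected and the lowest TMM factor, and the part of either in these values was not tested.

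**Figure D5:**
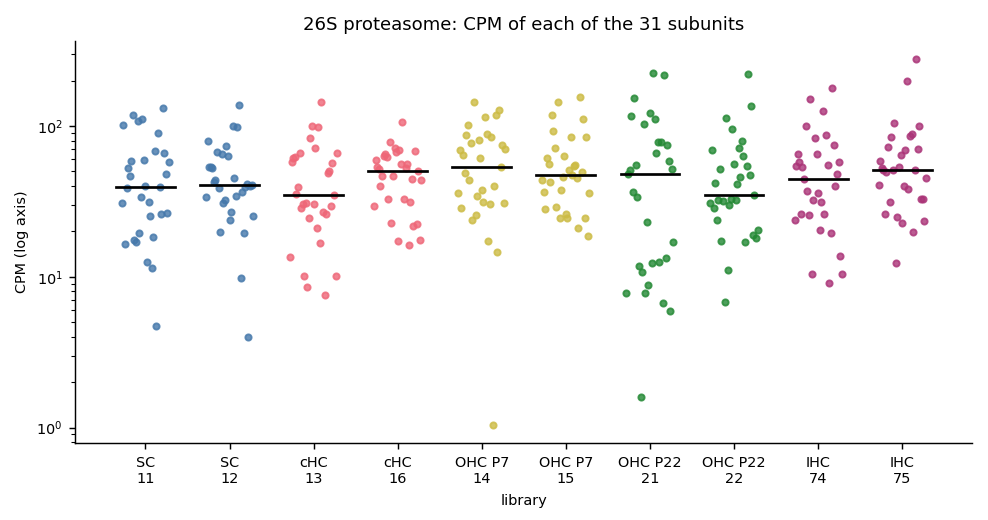
CPM (log y axis) of each of the 31 listed subunits of the 26S proteasome (points) in each of the 10 libraries. Black bars are medians. Medians lie between 34.9 and 53.6 CPM in all libraries, and OHC 21 has 11 subunits below 15 CPM, more than any other library.

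Psmd6 was the 1 subunit of the 26S proteasome that passed an edgeR FDR of 0.05 in any test, while DESeq2 also called Psmb7 (lower in P22 OHCs than SCs) and Psmb3 (between IHCs and P22 OHCs). It encodes Rpn7, a scaffold subunit of the 19S lid (mm9 chr14:14944698-14953498, - strand). It measured 39.1 and 19.4 CPM in SCs, 48.7 and 44.7 in cHCs, 118 and 155 in P7 OHCs, 217 and 222 in P22 OHCs, and 179 and 278 in IHCs. Both cHC libraries lay just above SCs and below all 6 native hair cell libraries. Its P22 OHC and cHC duplicates lay close together, and its SC and IHC duplicates less so.

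The log2 fold change of Psmd6 was 2.91 ± 0.59 for P22 OHCs minus SCs (edgeR FDR = 0.0122). It was 2.23 ± 0.57 for P22 OHCs minus cHCs (edgeR FDR = 0.0624) and 2.29 ± 0.57 for IHCs minus cHCs (edgeR FDR = 0.115), which did not pass edgeR and did pass limma-voom and DESeq2. The joint edgeR FDR was 0.0232, and it was 0.0221 to 0.0476 with any 1 library left out. Without SC library 12 the P22 OHC minus SC difference was 2.48 (edgeR FDR = 0.0779).

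Among the ATPases that unfold substrates, Psmc5 had the highest mean per kilobase, 68.5 CPM per kb. It measured 25.1 and 45.2 CPM in SCs, 98.1 and 106 in cHCs, 89.0 and 84.7 in P7 OHCs, 111 and 71.6 in P22 OHCs, and 126 and 198 in IHCs. Both SC libraries lay below all others, and the cHC minus SC difference was 1.54 ± 0.60 (log2, edgeR FDR = 0.278). Psmb7, a catalytic subunit with trypsin-like activity, measured 111 and 73.4 CPM in SCs against 23.2 and 32.9 CPM in P22 OHCs, a log2 difference of -1.72 ± 0.67 (edgeR FDR = 0.143).

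Subunits of the immunoproteasome, which replace the catalytic subunits in immune cells and after interferon, had few counts. Psmb8 had 3 counts in all, in IHC 75, and Psmb9 reached at most 0.128 CPM. Psmb10 measured 13.8 CPM in cHC library 13 and 0 CPM in cHC library 16, and 64.3 CPM in IHC 75 and 0.472 CPM in IHC 74, so its duplicates disagreed. The testis subunit Psma8 reached at most 1.49 CPM.

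Among the activators, Psme4 was called. Psme4 encodes PA200, a nuclear activator that opens the core for histone degradation (mm9 chr11:30671726-30780361, + strand, overlapped by Gm12103 on the other strand). It measured 68.5 and 71.6 CPM in SCs, 137 and 270 in cHCs, 306 and 270 in P7 OHCs, 640 and 180 in P22 OHCs, and 187 and 177 in IHCs. Both SC libraries lay below all others. The log2 fold change was 2.55 ± 0.64 for P22 OHCs minus SCs (edgeR FDR = 0.0345), and without OHC 21 it was 1.30 (edgeR FDR = 0.290). Without SC library 11 or 12 the call was lost as well (edgeR FDR 0.110 and 0.108).

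Psme1 and Psme2 encode PA28 alpha and beta, the interferon-inducible cap. Psme1 measured 30.6 and 38.3 CPM in SCs, 8.55 and 2.79 in cHCs, 27.7 and 9.33 in P7 OHCs, 0.265 and 4.55 in P22 OHCs, and 6.91 and 14.0 in IHCs. Both SC libraries lay above all others. Psme2 measured 14.9 and 26.1 CPM in SCs, 37.0 and 8.0 in cHCs, and 0.0882 to 13.4 CPM in the native hair cells, with cHCs and SCs overlapping. The 13 genes listed as assembly factors, activators and inhibitor, Psmc3ip among them, gave a median log2 fold change of -1.59 for P22 OHCs minus SCs (0.00 over all genes). Of these, 1 was higher at an edgeR FDR of 0.05 (Psme4) and 0 were lower, against 8.02% of all genes called.

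Of 56 further genes of the same pathways (heat shock factors, co-chaperones, prefoldins, ER folding and stress genes, ubiquitin genes and proteasome shuttles), all were tested. Lower in P22 OHCs than in SCs at an edgeR FDR of 0.05 were 5, and 0 were higher, a share close to the 8.02% of all genes called in that comparison. Among them were Bag3, Pfdn5 (a prefoldin that hands actin and tubulin to CCT), Pomp (the proteasome maturation protein) and Rps27a (a fusion of ubiquitin and a ribosomal protein). In the other 6 comparisons 0 were called by edgeR, against 0.343% to 3.18% of all genes. At an unadjusted edgeR p under 0.05 there were 2 to 11, against 11.2% to 19.3% of all genes. Pomp measured 30.7 and 24.7 CPM in P22 OHCs against 129 and 153 CPM in SCs, a log2 difference of -2.35 ± 0.64 (edgeR FDR = 0.0482). Hsf1, the factor of the heat shock element, measured 0.577 to 238 CPM with SC duplicates at 21.1 and 0.577, and its joint edgeR FDR was 0.300.

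The members with the smallest range of cell type means were Dnaja1 (a J protein of the cytosol), Hspa4 (an HSP110 relative) and Psma4 (a 20S core subunit). Dnaja1 measured 178 to 365 CPM over the 10 libraries, with a joint edgeR FDR of 0.959. Hspa4 measured 325 and 324 CPM in SCs, 268 and 308 in cHCs, 358 and 424 in P7 OHCs, 183 and 448 in P22 OHCs, and 472 and 354 in IHCs. Its lowest value and its second highest both came from P22 OHCs.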

How the data were processed

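RNA of 5 hand-picked mouse cochlear cell populations was sequenced in duplicate (10 libraries). Per the study's methods, the authors amplified the RNA (SPIA), trimmed the reads, aligned them with STAR and BWA to mm9 and counted reads per gene with HTSeq. The deposited values are raw counts. CASAVA 1.7 is named in the submitters' processing notes, and versions of the other tools are not given in the sources used here, nor is the strand setting. Reads assigned to no gene were 26.5% to 50.4% of each file and were left out. Of the 10 files, 4 are attached to another library's record. Each file was used as the library it names. The study's supplementary normalized values were used only to check which library each file holds.

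Counts were filtered (filterByExpr), TMM-scaled and fitted in 1 model with edgeR 4.0.16 (R 4.3.3), quasi-likelihood F-tests, with Benjamini-Hochberg FDR over 16891 genes and a threshold of 0.05. A joint test and 7 comparisons were made, with 2 libraries per cell type. Standard errors are the log2 fold change over the square root of F. The fit was tested on simulated data. DESeq2 1.42.0, limma-voom (limma 3.58.1), other scaling, other filters, the attached files, only the compared cell types and leaving out each library were alternatives. Levels between genes are CPM per kilobase of GENCODE exon. Genes named are those called, the highest and lowest mean of each list, the 3 largest and 3 smallest ranges of cell type means, and role exemplars. Dnajc3 was added for its motif, after its values were seen. Members and lists were chosen with earlier results of these data known. Promoters are from RefSeq (GRCm38.p6) and were placed on mm9 by sequence match. Figures used matplotlib 3.10.9. The values of 1 related gene are not reported here.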

Additional observations from a re-analysis of the deposited data

How the results depend on the processing

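Called members across the 5 cell types numbered 4, against 18 with DESeq2, 11 with limma-voom, 19 with no filter on low counts, 0 with files as attached to the records, and 3 to 9 with 1 library left out. For cHCs minus SCs the 1 call became 4 with DESeq2, 5 with limma-voom, 3 with no filter, 0 with attached files, 0 with only the compared cell types, and 0 to 1 with 1 library left out. For P22 OHCs minus SCs the 4 calls became 23, 7 and 14 with DESeq2, limma-voom and no filter, 8 with at least 10 counts in every library, 0 with attached files, 1 with only the compared cell types (Hspb6), and 2 to 7 with 1 library left out. The comparisons with 0 calls gave, with DESeq2, 11 (P22 OHCs minus cHCs), 2 (P7 OHCs minus cHCs), 3 (IHCs minus cHCs), 7 (P22 minus P7 OHCs) and 7 (IHCs minus P22 OHCs). With no filter they gave 5, 3, 3, 4 and 2, and with limma-voom 4, 2, 4, 0 and 0. With at least 10 counts in every library, P22 OHCs minus cHCs and P22 minus P7 OHCs gave 1 each, and the latter gave 0 to 1 with 1 library left out. The cause was not tested. Shares of all genes are given above for edgeR, DESeq2 and limma-voom only. The counts under the remaining settings are therefore not set against a background.

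Of 261 alternative values of 24 named fold changes, 256 kept their direction, 22 lost a call and 37 gained one. The 5 that reversed all used the attached files: Dnajb1 at 1.88, Hsp90ab1 at -0.11, Hspb6 at 0.15 and Psmc5 at -0.38 for cHCs minus SCs, and Hspa8 at -0.68 for P7 OHCs minus cHCs (log2). That setting puts libraries under other cell types' labels. Scaling by RLE moved the median of all genes by 0.12 for P22 minus P7 OHCs. No paired analysis was run. The cell types share no replicate numbers, and the form of the SC, cHC and P7 OHC library names was not modelled. With 2 libraries a cell type, a difference that did not pass edgeR does not show that levels were equal. Some such differences were called by DESeq2 or limma-voom.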

Other observations

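Of the 13 members with pseudogene symbols, 7 had no count and 3 were tested. Psme2b-ps, which the annotation lists as protein coding, measured 0 to 4.49 CPM and Hspe1-ps2 0 to 3.61 CPM. Hspe1-ps3, with no entry in the annotation used, measured 0.425 and 8.33 CPM in cHCs and 0 in both SC and both IHC libraries, with an edgeR FDR of 0.310 for cHCs minus SCs. Some assembly and accessory genes differed more between duplicates than between cell types. Psmg1, a chaperone of 20S assembly, measured 1.35 and 51.3 CPM in SCs, and Psmd11, a 19S lid subunit, 66.0 and 4.0 CPM in SCs. Hspa12b, an atypical HSP70 known from endothelium, measured 1.57 and 2.49 CPM in cHCs and at most 0.109 CPM in the other 8 libraries, with a joint edgeR FDR of 0.145.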
